A study of Mus musculus with 6 samples.

Results

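The S100 genes analysed here are S100a1, S100a3, S100a4, S100a6, S100a8, S100a9, S100a10, S100a11 and S100a13, taken by symbol from the expression table, with lines that share a symbol summed. They are 9 of the 17 S100 genes and of the 26082 different gene names in the table. In total 8 of the 9 averaged 1 FPKM or more across the 6 libraries, the minimum for testing, and were tested among 11130 genes. FPKM, fragments per kilobase of transcript scaled to the mapped fragments of the library, is a level per transcript length, so levels can be set side by side between genes. S100a3 stayed under the filter.

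RNA-Seq was performed on leukemia cells isolated with a cell sorter from the bone marrow of C57BL/6J mice. Both groups carried MLL-AF9, a fusion oncogene of acute myeloid leukemia, and 3 samples came from mice given vehicle and 3 from mice given 80 mg/kg DS-5272 by mouth 24 h before collection. DS-5272 keeps MDM2, the ubiquitin ligase that restrains p53, from binding p53. In the study's model, c-Kit+ bone marrow progenitors were retrovirally transduced with MLL-AF9 coexpressing GFP and passaged through several recipients, the first sublethally irradiated. The leukemia cells were at last injected into mice that were not irradiated, which kept their own blood cells. Mouse age, the Trp53 genotype of the sequenced cells and the sort gate are not given in the sample labels, and no label says that the replicates of a group were separate mice, so p-values measure the spread between these samples.

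S100 proteins are small calcium-binding proteins with paired EF-hand motifs that mostly act as dimers. Binding of calcium exposes a surface through which they hold partner proteins such as annexins, and several are also released from cells and act on surface receptors. S100a8 and S100a9 form calprotectin, an abundant cytosolic protein of neutrophils and monocytes that sequesters zinc and manganese and that can signal through Tlr4 and RAGE. In mice most S100 genes lie in 1 cluster on chromosome 3.

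Starting sequences are shown for the members on which the results turn: the calprotectin pair, which had the highest levels with DS-5272, S100a11, and the window shared by S100a13 and S100a1. They are RefSeq promoters of GRCm38.p6, from 250 bases before to 50 after the start site, written 5′ to 3′ on the gene's strand, and 8 of the 9 members had an entry. Capitals mark motif matches in the first 3. The motifs searched on both strands were the AP-1 motif TGANTCA, the C/EBP motif TTGCNNAA and the STAT motif TTCNNNGAA. TATAAA was searched on the gene's strand only and was added after the sequences were seen. S100a8 (chr3:90668821-90669120, plus strand) had TATAAA beginning 30 bases before the start. S100a9 (chr3:90695672-90695971, minus strand) had a C/EBP match beginning 236 bases before the start and TATAAA at the start itself. S100a11 (chr3:93520246-93520545, plus strand) had AP-1 matches beginning 136 and 38 bases before the start.
S100a8: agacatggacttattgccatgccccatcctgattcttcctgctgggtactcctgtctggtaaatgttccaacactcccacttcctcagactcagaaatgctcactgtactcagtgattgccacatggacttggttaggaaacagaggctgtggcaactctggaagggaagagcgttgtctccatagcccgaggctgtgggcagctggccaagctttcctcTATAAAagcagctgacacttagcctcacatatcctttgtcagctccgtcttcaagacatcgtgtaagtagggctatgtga
S100a9: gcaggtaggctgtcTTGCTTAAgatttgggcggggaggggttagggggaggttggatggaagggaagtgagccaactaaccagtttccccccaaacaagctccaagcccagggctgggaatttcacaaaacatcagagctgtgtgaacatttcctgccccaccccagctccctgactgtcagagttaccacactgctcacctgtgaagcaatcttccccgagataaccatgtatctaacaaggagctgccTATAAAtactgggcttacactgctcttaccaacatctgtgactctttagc
S100a11: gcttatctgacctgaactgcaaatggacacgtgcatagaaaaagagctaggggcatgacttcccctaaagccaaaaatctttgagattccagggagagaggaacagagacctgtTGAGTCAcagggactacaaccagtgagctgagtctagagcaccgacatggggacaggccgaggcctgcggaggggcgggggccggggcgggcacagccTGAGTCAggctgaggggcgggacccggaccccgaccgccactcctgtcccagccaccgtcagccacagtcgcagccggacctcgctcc

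Among 32851 RefSeq promoters of the same length, 7.81% held the AP-1 motif, 10.8% the C/EBP motif and 8.3% the STAT motif. TATAAA on the gene's strand was held by 8.32%. S100a4 also had TATAAA, beginning 31 bases before its start, and S100a3 had it in 1 of its 4 promoter windows. The windows of S100a1, S100a13 and S100a6 held none of the 4 motifs. A match is a run of letters and was not tested as a binding site.

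S100a13 and S100a1 lie head to head. Their RefSeq start sites are 105 bases apart, and their promoter windows overlap over 204 bases (chr3:90514281-90514484, plus strand), shown with the 7 CG pairs in capitals.
S100a13 and S100a1 shared window: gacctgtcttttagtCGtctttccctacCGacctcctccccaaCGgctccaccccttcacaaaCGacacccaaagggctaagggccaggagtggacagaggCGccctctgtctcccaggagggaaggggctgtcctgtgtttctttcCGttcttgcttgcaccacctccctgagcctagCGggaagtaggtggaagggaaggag

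After DS-5272, 6 of the 9 members rose and 0 fell. S100a8 and S100a9, the calprotectin subunits, were about 11.2-fold and 13.4-fold higher by group means, S100a6 15.8-fold and S100a4 5.33-fold. S100a4 was under 1 FPKM in every vehicle library. S100a11 and S100a13 rose by smaller amounts, 1.92-fold and 1.54-fold. S100a1 and S100a10 overlapped between the groups and did not pass the test, and S100a3 was at or near 0 in every library. In bulk RNA from sorted cells, more cells of a type and more RNA per cell cannot be told apart.

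The 6 members were called with limma on log2(FPKM + 1), at a Benjamini-Hochberg adjusted p under 0.05 over all tested genes. Of all tested genes, 24.2% rose and 22% fell by this rule, 2697 and 2451 genes, and the median log2 fold change was 0.04. When each library was scaled to a common total, the median moved by −0.25 and the split became 1717 higher and 3536 lower, and with a common upper quartile it moved by −0.12 and the split was 2233 and 3179. The 6 members were called under both scalings. With the common total the log2 difference was 0.65 for S100a11 and 0.355 for S100a13, against 0.91 and 0.62 without scaling. For S100a6, S100a8 and S100a9 it went from 3.73, 3.69 and 4.08 to 3.54, 3.42 and 3.82. S100a4 went the other way, from 1.35 to 1.51. An exact permutation test of each of the 6 gave p = 0.1, the smallest that 3 against 3 samples allow. All 3 DS-5272 values lay above all 3 vehicle values for the same 6 members, which was so for 32.1% of tested genes, while the opposite order, seen in 29.7%, was found in 0 members. A log2 fold change of at least 1 was reached by 4 called members, S100a4, S100a6, S100a8 and S100a9, against 8.79% of tested genes. S100a4 is in each of these member counts although it passed the filter only through the DS-5272 samples. Its means were 0.559 FPKM with vehicle and 2.98 FPKM with DS-5272. Only 11 tested genes had a larger log2 fold change than S100a9, 19 than S100a6 and 22 than S100a8.

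**Figure D1:**
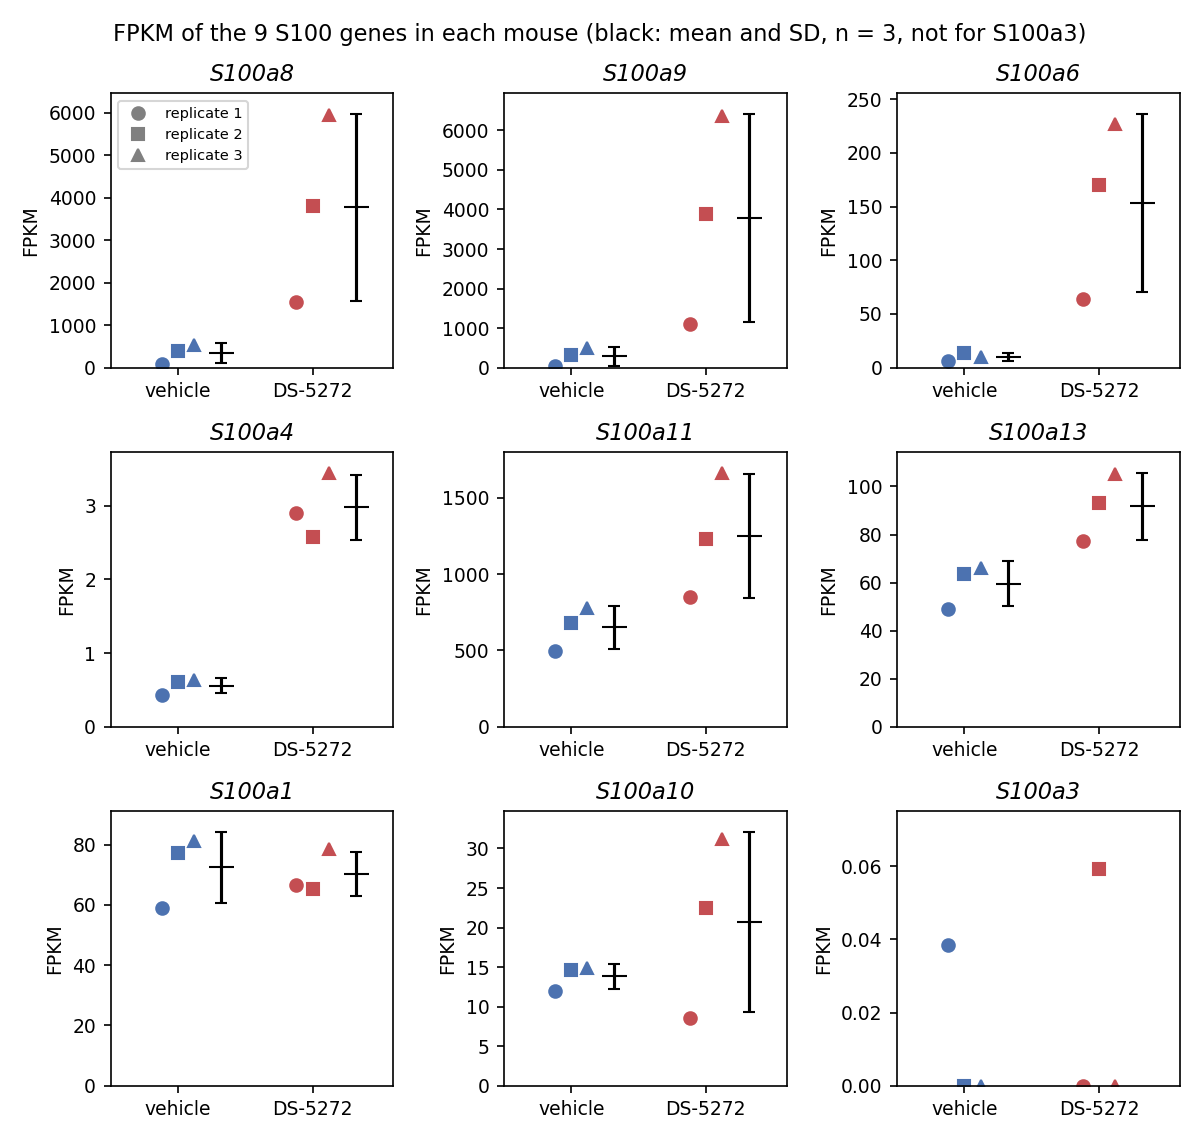
FPKM of the 9 S100 members in each of the 6 samples, each member on its own linear axis, vehicle and DS-5272 apart. Points are samples, with marks for mean and SD where a member was tested. S100a8 and S100a9 run from 34.9 to 6366 FPKM, whereas S100a1 stays between 59.1 and 81.2.

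S100a8 encodes the smaller calprotectin subunit (chr3:90668978-90670035, plus strand). Its level was 75.5, 396 and 541 FPKM in vehicle replicates 1 to 3 and 1542, 3817 and 5953 FPKM in DS-5272 replicates 1 to 3. The groups did not overlap, and replicate 1 was lowest in each. The means were 338 ± 238 and 3771 ± 2206 FPKM (SD, n = 3 each). On the log2(FPKM + 1) scale S100a8 rose by 3.69 with a standard error of 0.81 (limma, adjusted p = 0.012, 95% interval 1.75 to 5.62). It was called in all 6 fits that left out 1 library, with changes from 2.82 to 4.23.

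S100a9 encodes the other subunit (chr3:90692632-90695721, minus strand). It was at 34.9, 325 and 487 FPKM with vehicle and at 1109, 3892 and 6366 FPKM with DS-5272. Again every DS-5272 sample was above every vehicle sample, and replicate 1 was the lowest of its group. The means were 282 ± 229 and 3789 ± 2630 FPKM (SD, n = 3 each), with a log2 difference of 4.08 and a standard error of 1.07 (limma, adjusted p = 0.021, 95% interval 1.52 to 6.64). Without DS-5272 replicate 2 the adjusted p was 0.063 and without DS-5272 replicate 3 it was 0.066. It was called in the other 4 such fits, and the log2 difference was 2.92 to 4.80 over all 6.

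By rank of FPKM within a library, S100a8 was entry 1054, 188 and 141 with vehicle and entry 20, 5 and 3 with DS-5272. S100a9 moved from 2607, 224 and 157 to 51, 3 and 2. Both subunits were thus among the most abundant transcripts of every DS-5272 library. Their summed share of all FPKM was 0.0248%, 0.147% and 0.205% with vehicle and 0.531%, 1.33% and 1.86% with DS-5272. The 9 members together made up 0.164% to 0.395% with vehicle and 0.746% to 2.18% with DS-5272.

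Both subunits were higher in the same samples. The ratio of S100a8 to S100a9 was 2.16, 1.22 and 1.11 with vehicle and 1.39, 0.981 and 0.935 with DS-5272. In each group it was highest in replicate 1, where both genes were lowest. The groups overlapped and the log2 ratio differed by −0.40 (exact permutation test, p = 0.4, adjusted p = 0.4 over the 4 ratios computed). With 3 against 3 samples this exact test cannot go below p = 0.1.

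By replicate number, DS-5272 over vehicle was 20.4, 9.63 and 11 for S100a8 and 31.8, 11.98 and 13.1 for S100a9. Replicate 1 had the largest ratio for both although its DS-5272 levels were the lowest. With the replicate number as a block, the standard error fell to 0.21 for S100a8 (limma, adjusted p = 0.00039) and 0.27 for S100a9 (adjusted p = 0.00050). The block called the same 6 members, against 30.3% of all tested genes that rose with it.

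**Figure D2:**
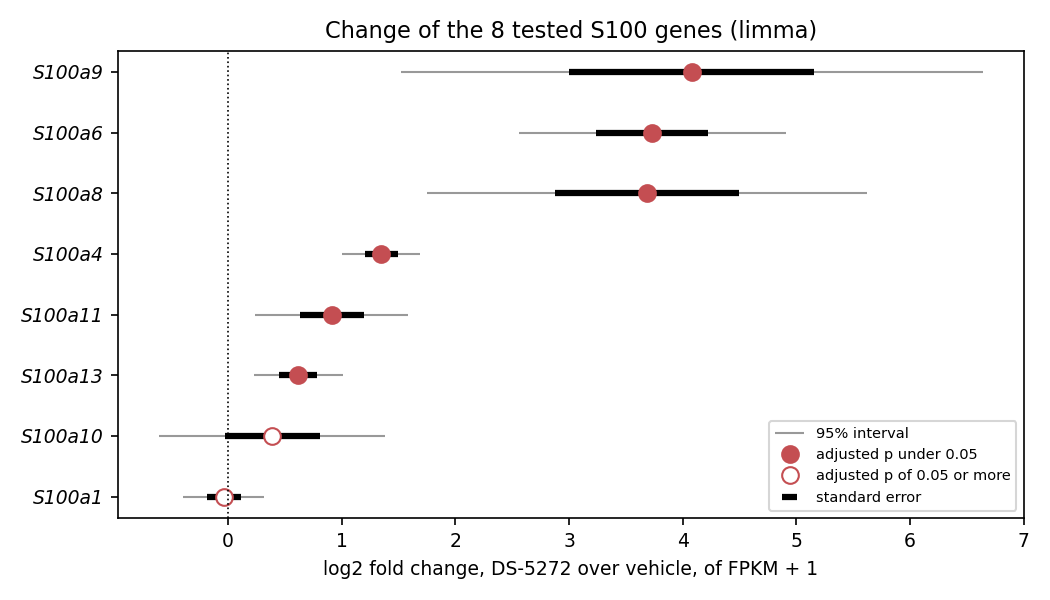
Log2 fold change, DS-5272 over vehicle on log2(FPKM + 1), with its 95% interval for the 8 tested members. The intervals of S100a4, S100a6, S100a8, S100a9, S100a11 and S100a13 lie above 0, and those of S100a1 and S100a10 include it.

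The tested genes outside the family whose values ran closest to calprotectin were mostly stefin A genes, inhibitors of cysteine proteases. Likeness was the root mean square difference of log2(FPKM + 1) values centred on their mean over the 6 samples, and it is a description over 2 groups of 3. For S100a8 the closest were Gm5483 (0.17), Stfa1 (0.18) and Dusp6 (0.24), a phosphatase that acts on ERK. For S100a9 they were BC100530 (0.06), Stfa2l1 (0.29) and Gm5483 (0.32). BC100530 was at 17.2, 167 and 241 FPKM with vehicle and 605, 1863 and 3107 FPKM with DS-5272. Dusp6 was at 1.55, 8.28 and 13.2 FPKM with vehicle and 28.5, 94.3 and 140 FPKM with DS-5272. The stefin A genes are near-identical copies that share reads, so the level of each alone is uncertain. By the same measure S100a8 and S100a9 were 0.40 apart.

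**Figure D3:**
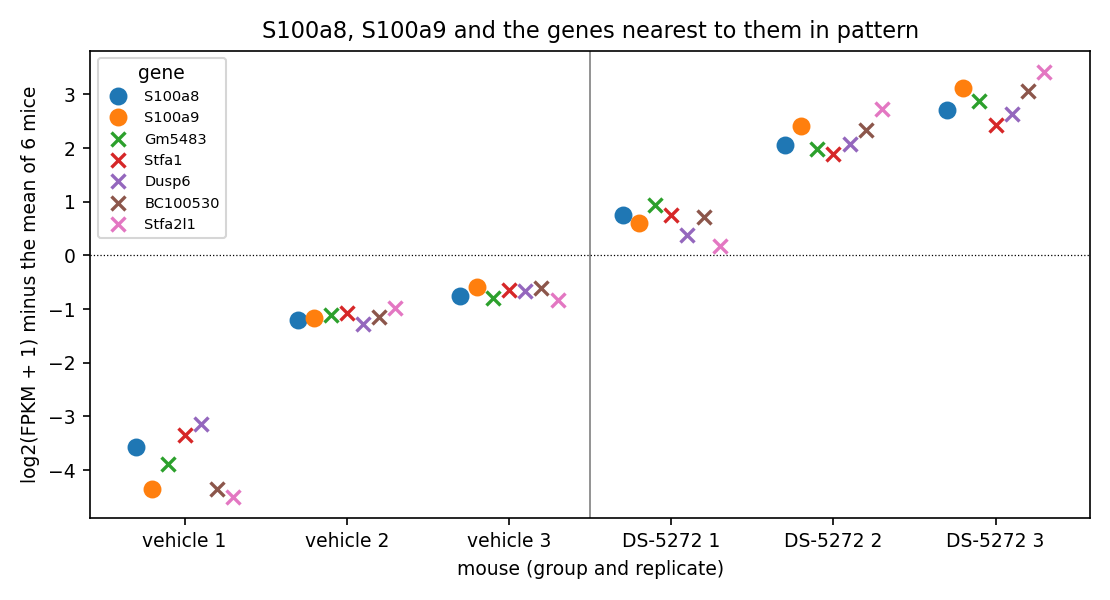
Centred log2(FPKM + 1) of S100a8 and S100a9 and of the 3 tested genes outside the family closest to each, by sample. In all of them replicate 1 is the lowest sample of its group.

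S100a6, or calcyclin, binds annexins and the calcyclin-binding protein Cacybp (chr3:90612882-90624181, plus strand). It was at 5.91, 13.5 and 9.71 FPKM with vehicle and at 63.9, 170 and 227 FPKM with DS-5272. The lowest DS-5272 sample was above the highest vehicle sample by several-fold. The means were 9.72 ± 3.82 and 154 ± 82.8 FPKM (SD, n = 3 each), and the log2 difference was 3.73 with a standard error of 0.49 (limma, adjusted p = 0.0031, 95% interval 2.56 to 4.90). It was called in all 6 fits without 1 library. S100a6 and S100a8 differed by 0.64 in the centred measure, with S100a6 changing about as much from a far lower level.

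S100a4, known as metastasin, binds non-muscle myosin and marks motile cells (chr3:90603771-90606045, plus strand). Its level was 0.435, 0.612 and 0.630 FPKM with vehicle and 2.91, 2.58 and 3.45 FPKM with DS-5272. The groups were far apart and narrow, with means of 0.559 ± 0.108 and 2.98 ± 0.44 FPKM (SD, n = 3 each). The log2 difference was 1.35 with a standard error of 0.14 (limma, adjusted p = 0.0018). The added 1 FPKM understates the change of so low a gene, and with 0.1 FPKM in its place the difference was 2.23. S100a4 passed the filter only through the DS-5272 samples, and its exons overlap those of Gm42674 on the same strand.

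S100a11 binds annexin A1 and was the most abundant member with vehicle (chr3:93520488-93526287, plus strand). It was at 495, 677 and 778 FPKM with vehicle and at 852, 1231 and 1664 FPKM with DS-5272. The groups came close but did not overlap, and replicate 1 was lowest in both. The means were 650 ± 143 and 1249 ± 406 FPKM (SD, n = 3 each). The log2 difference was 0.91 with a standard error of 0.28 (limma, adjusted p = 0.036, 95% interval 0.24 to 1.59). The call held in 1 of the 6 fits without 1 library, the one without DS-5272 replicate 1, and the adjusted p was 0.053 to 0.109 in the others. With the replicate block the adjusted p was 0.0014. In rank S100a11 moved from 127, 110 and 101 to 82, 57 and 44.

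S100a13 takes part in the release of Fgf1 and Il1a from cells (chr3:90514435-90524581, plus strand). It was at 48.8, 63.8 and 66.0 FPKM with vehicle and at 77.1, 92.9 and 105 FPKM with DS-5272. The means were 59.5 ± 9.32 and 91.7 ± 13.99 FPKM (SD, n = 3 each), a log2 difference of 0.62 with a standard error of 0.16 (limma, adjusted p = 0.022, 95% interval 0.22 to 1.01). The call was lost without vehicle replicate 1 (adjusted p = 0.063), vehicle replicate 2 (0.055), DS-5272 replicate 2 (0.058) or DS-5272 replicate 3 (0.055).

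S100a1, a member best known from heart and skeletal muscle, starts beside S100a13 on the other strand (chr3:90511034-90514392, minus strand). Its level was 59.1, 77.2 and 81.2 FPKM with vehicle and 66.5, 65.4 and 78.6 FPKM with DS-5272. The groups overlapped, with means of 72.5 ± 11.8 and 70.2 ± 7.30 FPKM (SD, n = 3 each). The log2 difference was −0.04 with a 95% interval of −0.39 to 0.32 (limma, adjusted p = 0.85).

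The balance of the head-to-head neighbours was compared as a ratio. The ratio of S100a13 to S100a1 was 0.827, 0.826 and 0.813 with vehicle and 1.16, 1.42 and 1.34 with DS-5272. The groups did not overlap and the vehicle values were nearly equal. The log2 ratio differed by 0.66 (exact permutation test, p = 0.1, the smallest possible, adjusted p = 0.133 over 4 ratios).

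S100a10, or p11, is unusual in not binding calcium and forms a complex with annexin A2 (chr3:93555080-93564643, plus strand). It was at 12.02, 14.6 and 14.9 FPKM with vehicle and at 8.59, 22.4 and 31.2 FPKM with DS-5272. DS-5272 replicate 1 was below all vehicle samples and the other 2 above them. The means were 13.8 ± 1.59 and 20.7 ± 11.4 FPKM (SD, n = 3 each), and the log2 difference was 0.39 with a 95% interval of −0.61 to 1.38 (limma, adjusted p = 0.47). Without DS-5272 replicate 1 it was 0.89 and passed the test (adjusted p = 0.013).

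Its partner Anxa2 was at 105, 149 and 158 FPKM with vehicle and at 170, 276 and 333 FPKM with DS-5272. The ratio of S100a10 to Anxa2 was 0.115, 0.0982 and 0.0944 with vehicle and 0.0506, 0.0813 and 0.0937 with DS-5272, a log2 difference of −0.49. The ratio of S100a11 to S100a10, neighbours at the far end of the family, was 41.2, 46.4 and 52.2 with vehicle and 99.2, 54.9 and 53.4 with DS-5272, a log2 difference of 0.51. Neither ratio overlapped between the groups, although the nearest values were close (exact permutation test, p = 0.1 and adjusted p = 0.133 for each).

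**Figure D4:**
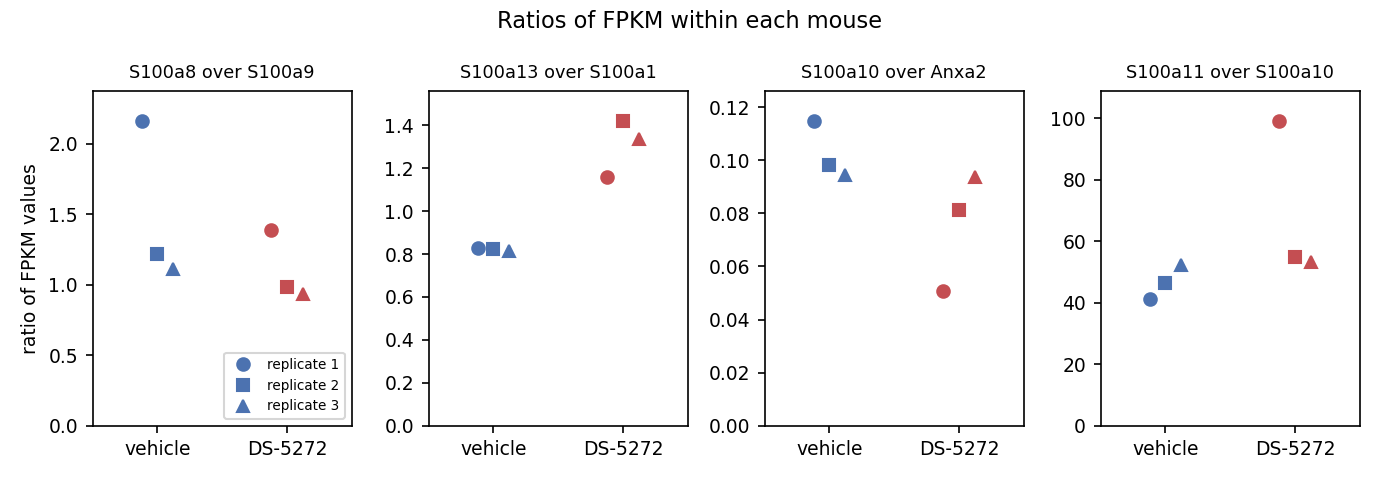
The 4 expression ratios by sample, each on its own linear axis, vehicle and DS-5272 apart. S100a13 over S100a1 is 0.813 to 0.827 with vehicle and 1.16 to 1.42 with DS-5272, whereas S100a8 over S100a9 overlaps between the groups.

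S100a3 (chr3:90560578-90602702, plus strand) was listed at 0.0386 FPKM in vehicle replicate 1, at 0.0592 FPKM in DS-5272 replicate 2 and at 0 in the other 4 libraries. Of the other 8 S100 genes in the table, 0 reached a mean of 1 FPKM. S100a7a was listed at 0 with vehicle and at 0.0491, 0.113 and 0.136 FPKM with DS-5272. S100a14, S100a16 and S100b did not exceed 0.0956 FPKM in any library, and S100a2, S100a5, S100g and S100z were listed at 0 in all.

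Along chromosome 3, 7 of the members lie in 1 cluster. Measured from the S100a8 start, S100a1 lies at −154.6 kb, S100a13 at −154.5 kb, S100a3 at −108.4 kb, S100a4 at −65.2 kb, S100a6 at −56.1 kb and S100a9 at 26.7 kb. S100a11 and S100a10 lie apart, at 2851.5 and 2886.1 kb. The genes with the larger changes, S100a4, S100a6, S100a8 and S100a9, are consecutive among the tested members of the cluster. S100a4 was tested only because of its DS-5272 values. S100a5 and S100a7a, which lie between S100a4 and S100a8 at −60.5 and −15.0 kb, were at or near 0.

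**Figure D5:**
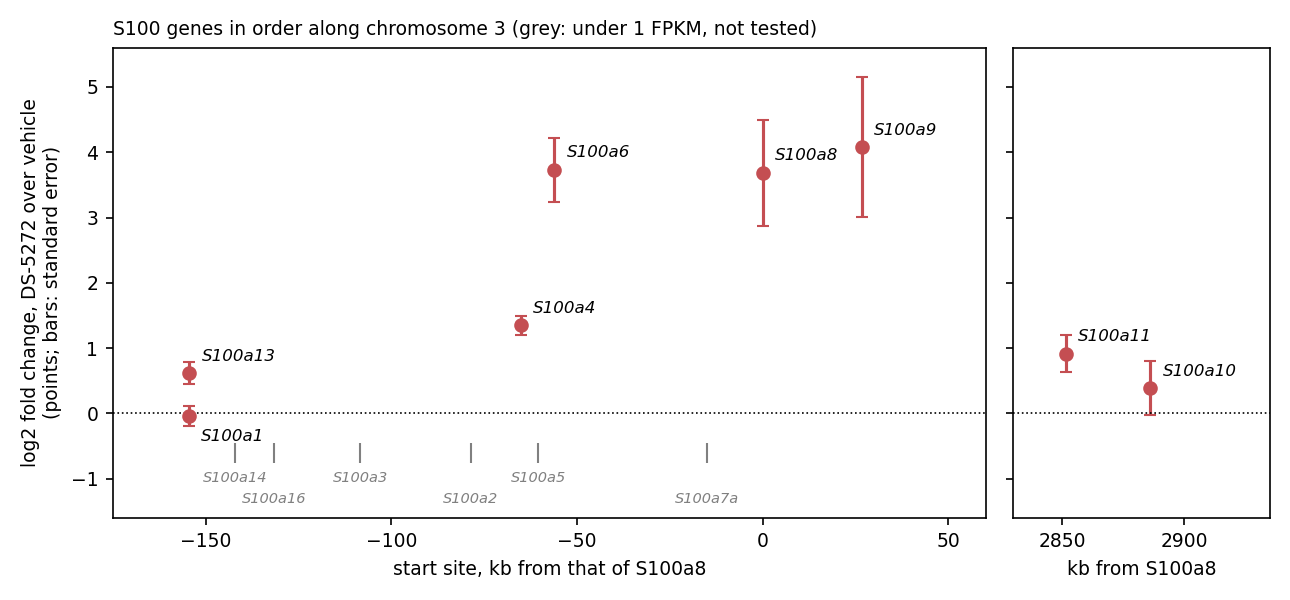
Position of the S100 genes along chromosome 3, in kb from the S100a8 start, against the log2 fold change of the tested members. The members from S100a4 to S100a9 stand at 1.35 to 4.08, while S100a1 and S100a13 at the other end of the cluster stand at −0.04 and 0.62.

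Among the genes that lie within 250 kb of a member and are not S100 genes, 17 had an entry and 6 were tested. Dennd4b, a Rab exchange factor, rose by 0.80 on the log2 scale (limma, adjusted p = 0.0027). Ilf2, an RNA-binding protein, fell by 0.70 (limma, adjusted p = 0.0078). The other 4 did not pass the test, and the median of the 6 was 0.19. Of all tested genes, 24.2% rose and 22% fell. With the replicate block Snapin, a protein of vesicle fusion, also rose, by 0.29 (limma, adjusted p = 0.046 with the block and 0.055 without).

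S100 proteins act by binding others, and of 13 genes for such partners 11 were tested, 6 rose and 1 fell. The median log2 fold change was 0.88 against 0.04 over all tested genes, of which 24.2% rose and 22% fell. Ahnak, a large scaffold bound by S100a10 and annexin A2, rose from 0.933 ± 0.204 to 6.98 ± 3.83 FPKM (SD, n = 3 each), a log2 difference of 1.91. Il1a, a cytokine released together with S100a13, rose from 0.123 ± 0.064 to 3.35 ± 2.70 FPKM, a difference of 1.77, with the call lost without vehicle replicate 2 (adjusted p = 0.052). Ahnak and Il1a passed the filter on low values only through the DS-5272 samples, and among the other 9 tested partners 4 rose and 1 fell, with a median of 0.81. Anxa5 and Anxa6, calcium-dependent membrane-binding annexins, rose by 1.26 and 1.09. Anxa2 rose by 0.88 (limma, adjusted p = 0.038), a call kept in 1 of 6 fits without 1 library, the one without DS-5272 replicate 1. Myh9, the non-muscle myosin bound by S100a4, rose from 157 ± 19.2 to 280 ± 66.1 FPKM, a log2 difference of 0.81, and was not called without vehicle replicate 2 (limma, adjusted p = 0.056). The member that fell was Cacybp, the partner of S100a6, from 60.3 ± 2.03 to 36.3 ± 8.10 FPKM, while S100a6 itself rose. Anxa1, the partner of S100a11, was at 122, 248 and 269 FPKM with vehicle and at 210, 416 and 590 FPKM with DS-5272, and did not pass the test (limma, adjusted p = 0.14, and 0.0023 with the replicate block). Anxa11, another annexin, had a difference of 0.79 and likewise passed only with the block (limma, adjusted p = 0.063 without it and 0.0038 with it). With the block 8 partners rose and 1 fell.

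Of 10 genes for receptors of released S100 proteins, 7 were tested, 3 rose and 0 fell, with a median of 0.24. Over all tested genes 24.2% rose and 22% fell. The 3 receptor genes that rose belong to the Tlr4 complex. Cd14, its co-receptor, was at 19.2, 79.3 and 95.6 FPKM with vehicle and at 192, 333 and 573 FPKM with DS-5272, a log2 difference of 2.63 (limma, adjusted p = 0.018, and 0.053 without DS-5272 replicate 3). Ly96, which holds the ligand, rose from 4.49 ± 0.67 to 13.6 ± 2.91 FPKM (SD, n = 3 each). Tlr4 itself was at 16.1, 12.2 and 11.2 FPKM with vehicle and at 35.1, 19.0 and 25.8 FPKM with DS-5272, a log2 difference of 0.94 (limma, adjusted p = 0.018, 0.065 without vehicle replicate 2 and 0.063 without vehicle replicate 3). Ager, which encodes RAGE, was at 1.72 ± 0.61 and 2.06 ± 0.34 FPKM and did not pass the test, and neither did Bsg, Cd69 and Nptn.

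Calprotectin accumulates as neutrophils mature, and of 15 genes of neutrophil granules and maturation 13 were tested, 11 rose and 0 fell. Their median log2 fold change was 2.999, and of all tested genes 24.2% rose and 22% fell. Mmp9 and Mmp8, matrix proteases of neutrophil granules, rose by 4.33 and 3.36. Fpr1, a receptor for formyl peptides, rose by 3.90 and Retnlg, a resistin-like secreted protein of neutrophils, by 3.61. Stfa2l1 rose by 4.21, a call lost without vehicle replicate 1 (limma, adjusted p = 0.053), DS-5272 replicate 2 (0.080) or DS-5272 replicate 3 (0.082). Camp and Ngp, secondary granule proteins, had differences of 1.40 and 2.21 and did not pass the test (limma, adjusted p = 0.35 and 0.18), but did with the replicate block, where 13 of 13 rose.

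The summed level of this list ran from 411 to 1733 FPKM with vehicle and from 2845 to 11002 FPKM with DS-5272. In both groups its order over the replicates was that of S100a8 and S100a9. Its part in the S100 results was not tested. Ly6g, a surface marker of mature mouse neutrophils, was at 0.160 to 0.264 FPKM with vehicle and at 0.580 to 3.66 FPKM with DS-5272, and had the lowest mean of the 13. It passed the filter only through the DS-5272 samples and was called in 1 of 6 fits without 1 library, the one without DS-5272 replicate 1. Among the other 12 tested genes of the list, 10 rose, 0 fell and the median was 3.18.

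Of 10 myeloid regulators 9 were tested, 5 rose and 1 fell, with a median of 0.86. The shares over all tested genes were 24.2% higher and 22% lower. Irf8 and Hif1a rose by 1.24 and 1.05. Cebpb and Cebpd, C/EBP factors of myeloid and inflammatory gene expression, rose by 0.94 and 0.86, the first called in 1 of 6 fits without 1 library, the one without DS-5272 replicate 1. Stat3 rose by 0.74. Gfi1, a repressor needed for neutrophil development, fell from 71.5 ± 6.501 to 37.8 ± 4.36 FPKM (SD, n = 3 each). Cebpe, which drives secondary granule genes, was at 41.0 ± 8.45 and 43.9 ± 13.8 FPKM, and Cebpa had a difference of −0.38. Neither passed the test (limma, adjusted p = 0.86 and 0.077). Klf4, a factor of monocyte development, was at 0.428, 16.6 and 23.2 FPKM with vehicle and at 3.10, 36.7 and 44.3 FPKM with DS-5272. Its groups overlapped and it passed only with the replicate block (limma, adjusted p = 0.48 without it and 0.0025 with it), where 6 regulators rose and 1 fell.

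The leukocyte marker Ptprc and the myeloid integrin Itgam were expressed in every library, Ptprc at 66.0 to 84.5 FPKM with vehicle and 141 to 214 FPKM with DS-5272. The leukemia gene Meis1 was at 66.1 to 80.5 and 69.2 to 110 FPKM. The progenitor genes Mpo, Elane and Kit were lower with DS-5272, Mpo at 140 to 325 FPKM with vehicle and 3.25 to 12.2 FPKM with DS-5272. Markers of other cells also moved. The summed level of 7 macrophage markers was 43.4 to 92.1 FPKM with vehicle and 108 to 363 FPKM with DS-5272, with 3 of 6 tested markers higher. Vcam1 was most of this sum outside DS-5272 replicate 1, at 36.6 to 82.8 FPKM with vehicle and 74.8 to 143 FPKM with DS-5272. The paper reports higher VCAM-1 in c-Kit+ cells after DS-5272. Each of the other macrophage markers was higher in every DS-5272 library than in any vehicle library, with Marco at 0 in all vehicle libraries. The summed level of 5 erythroid markers was 2.06 to 4.45 and 12.4 to 146 FPKM, with 2 of 3 tested markers higher. Both sums peaked in DS-5272 replicate 1, the library with the lowest S100a6, S100a8, S100a9, S100a10, S100a11 and S100a13 of its group. The sum of 5 T cell markers was 0.279 to 0.396 FPKM with vehicle and 0.600 to 3.47 FPKM with DS-5272. Its highest value, in DS-5272 replicate 1, was mostly Cd4 at 3.28 FPKM. For 5 NK cell markers the sum was 0.407 to 0.844 FPKM with vehicle and 1.37 to 2.80 FPKM with DS-5272. The sum of 5 B cell markers was 4.29 to 5.02 with vehicle and 3.39 to 4.29 FPKM with DS-5272, and that of 4 megakaryocyte markers 1.68 to 2.08 and 4.32 to 6.95 FPKM. That of 6 stromal and endothelial markers, mostly Pecam1, was 29.0 to 59.98 and 73.4 to 112 FPKM. No marker of these lists was at 0 in all 6 libraries, and their part in the S100 results was not tested.

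The FPKM sum was 445316 to 501241 per vehicle library and 499229 to 661184 per DS-5272 library. Depth relative to vehicle replicate 1, read from the FPKM steps of low genes, was 0.808 to 1 with vehicle and 0.539 to 0.746 with DS-5272. The members are short genes, with median annotated transcript lengths of 417 to 715 bases. The 767 tested genes in that range had a median log2 fold change of 0.02, and 23.1% of them rose.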

How the data were processed

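RNA from 6 sorted leukemia samples, 3 vehicle and 3 DS-5272, was sequenced from both ends with a strand-specific kit. The authors trimmed reads with cutadapt 1.8.1, aligned them to GRCm38 with TopHat2 2.1.1 and deposited FPKM values per gene from Cufflinks 2.2.1, per the labels and the submitters' processing notes. Whether counting used strand is not given in the sources used here. FPKM is divided by transcript length and mapped fragments, so a few abundant genes lower all others, and no count was available for a count model. The table had 26632 lines. Lines with the same name were added up (435 names), 433 lines held several genes under a joint entry, and 7954 were at 0 throughout. Depth is known only relative to vehicle replicate 1 and limits the precision of low genes.

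Groups follow the sample labels. The groups were compared with limma 3.58.1 (R 4.3.3, lmFit and eBayes with trend) in two-sided tests of log2(FPKM + 1), run over 11130 genes that averaged 1 FPKM or more, with Benjamini-Hochberg adjustment and a threshold of 0.05. Ratios and single members were compared with exact permutation tests in scipy 1.17.1 under Python 3.11.15. The fit was tested on simulated data. Named genes are all members and other S100 genes, up to 5 called genes with the largest changes per list, up to 3 called neighbours, the 3 genes closest to S100a8 and S100a9, and the listed markers. Other genes named from these lists were chosen after their values were seen. The members and lists were chosen with earlier results of these data known.

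Deviations from the group means correlated at r = 0.66, 0.21 and 0.43 between samples with the same replicate number, for numbers 1 to 3. Other pairs gave −0.58 to 0.34, the highest for vehicle replicate 2 with DS-5272 replicate 3, so number 2 did not stand apart. Blocked values are printed where they change a call, and for S100a8, S100a9 and S100a11, where they do not. For S100a4, S100a6 and S100a13 the blocked adjusted p was 0.0016, 0.00042 and 0.0035 (limma). Alternatives were another pseudocount, other filters, scalings, call rule, variance model and handling of shared names, a length correction, the block and leaving out each library. Gene positions are from GENCODE M21 (GRCm38) and promoters from RefSeq (GRCm38.p6). Protein sequences were not analysed here.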

Additional observations from a re-analysis of the deposited data

How the results depend on the processing

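Across the settings that kept all 6 libraries, 5 or 6 S100 genes rose, or 4 when a log2 fold change of at least 1 was required, and 0 fell. With the replicate block 6 rose and no member's call changed, while 3367 of all genes rose (30.3%). The fold requirement left 978 genes higher and 621 lower, 4 binding partners and 2 myeloid regulators. With no filter 5 S100 receptors were called and S100a11 was lost (limma, adjusted p = 0.083). A common total gave 1717 genes higher. Leaving out 1 library at a time gave 3 to 7 S100 genes higher and 0 lower, 1623 to 2934 of all genes higher and 1389 to 2432 lower, 4 to 9 binding partners called, 2 to 4 receptors, 9 to 11 neutrophil genes and 5 to 6 regulators. The lowest S100 count, 3, came without DS-5272 replicate 2 or 3, and the highest, 7, without DS-5272 replicate 1. Without vehicle replicate 1 or 2 the count was 4. In these fits the difference of S100a1 ran from −0.18 to 0.049. It changed sign without vehicle replicate 2 (0.014), vehicle replicate 3 (0.049) or DS-5272 replicate 2 (0.009). With all 6 libraries it was −0.30 under a common total (limma, adjusted p = 0.071) and −0.18 under a common upper quartile (0.26). The causes of these shifts were not tested. The levels of S100a3, S100a7a and S100a4 were low, and depth limits the precision of such values. Whether depth played a part in their values was not tested.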

Other observations

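Of the genes within 250 kb of a member, Npr1 and Tchh were under the filter on low values and were not tested. Npr1, a natriuretic peptide receptor, was at 1.20, 1.69 and 1.57 FPKM with vehicle and at 0.505, 0.458 and 0.370 FPKM with DS-5272. Tchh, the hair follicle protein trichohyalin, was at 0.527, 0.658 and 0.523 FPKM with vehicle and at 0.184, 0.170 and 0.177 FPKM with DS-5272. In both the groups did not overlap and the vehicle samples were the higher ones, an order seen in 29.7% of tested genes. Pglyrp4, also under the filter, went the other way. It was at 0 to 0.0118 FPKM with vehicle and at 0.0140 to 0.135 FPKM with DS-5272.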
